A study of Mus musculus with 24 samples.

Results

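The caveolins and cavins are the coat proteins of caveolae, the small flask-shaped pits of the plasma membrane. The genes described here are the 3 caveolins, Cav1, Cav2 and Cav3, and 3 of the cavins, Ptrf (cavin-1), Sdpr (cavin-2) and Prkcdbp (cavin-3), chosen by their gene names among the 28109 genes of the deposited table. RNA-seq was made from C2C12 cells, an established mouse myoblast line of the C3H strain, and from primary myoblasts (PMs) taken from 3 to 4 week-old C57/B6 mice. They received siControl, an siRNA against luciferase, or siRNA pools that silence Tead1 and Tead4 (siTead1/4), members of the TEAD family of transcription factors. RNA was taken from undifferentiated cells 24 hours later (day 0) and at days 3 and 6 in 2% horse serum. This gave 12 groups of 2 biological replicates, 24 libraries in all. The silencing was transient, and PMs are a culture of cells isolated from muscle and not a clone. The cell types also differed in strain, and C2C12 cells grew in DMEM whereas PMs grew on matrigel in IMDM, so that cell type, strain and culture cannot be told apart in any comparison between them.

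Caveolin oligomers insert into the inner leaflet of the membrane and cavins assemble around them to bend it. Cav1 and Cav2 are made in many tissues, above all in endothelial cells, fat cells and fibroblasts, and Cav2 generally reaches the surface together with Cav1. Cav3 is the caveolin of skeletal and heart muscle, where its loss causes muscular dystrophies. Ptrf is needed for caveolae in all tissues, muscle included, while Sdpr and Prkcdbp shape and tune them. In muscle fibres caveolae buffer the membrane against stretch and take part in the building of T-tubules.

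All coordinates of genes are of the mm9 (NCBIM37) build, as deposited, and each span was identical in the GENCODE vM1 annotation. Cav2 (ENSMUSG00000000058, 6:17231185-17239115) and Cav1 (ENSMUSG00000007655, 6:17256335-17291452) are neighbours on the + strand of chromosome 6, with 17219 bases between them. Cav3 (ENSMUSG00000062694, 6:112409495-112422865, + strand) lies elsewhere on the same chromosome. Ptrf (ENSMUSG00000004044) spans 11:100818047-100832201 on the - strand, Sdpr (ENSMUSG00000045954) 1:51345970-51359803 on the + strand, and Prkcdbp (ENSMUSG00000037060) 7:112629121-112630711 on the - strand. The library kit did not keep the strand, so reads of overlapping genes cannot be separated. The one annotated overlap was Gm15581, a noncoding transcript on the - strand that spans Cav1 and Cav2 and shares 0 exon bases with either.

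TEAD factors recognise the MCAT element, and myogenic factors of the MyoD family recognise the E-box. Promoter windows of 250 bases before to 50 after the start were taken from RefSeq (GRCm38.p6), where 5 of the 6 genes had an entry under their present names (Cavin1 for Ptrf, Cavin2 for Sdpr). The MCAT core CATTCC was searched on both strands, as was the E-box CANNTG. The letters of these motifs do not overlap in any of the windows. Cav3 and Sdpr, the 2 genes that passed the test after Tead1/4 silencing, are shown with Ptrf, the common partner of all caveolins, from 250 bases before to 30 after the start, in the gene's own direction and with motif matches in capitals.
Cav3, chr6:112459255-112459534 (+ strand): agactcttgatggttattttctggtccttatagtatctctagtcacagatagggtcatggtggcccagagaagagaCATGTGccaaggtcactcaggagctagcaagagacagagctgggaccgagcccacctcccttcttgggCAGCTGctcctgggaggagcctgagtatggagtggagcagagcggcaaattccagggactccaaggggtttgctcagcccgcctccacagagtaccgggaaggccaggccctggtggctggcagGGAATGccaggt
Ptrf, chr11:100970588-100970867 (- strand): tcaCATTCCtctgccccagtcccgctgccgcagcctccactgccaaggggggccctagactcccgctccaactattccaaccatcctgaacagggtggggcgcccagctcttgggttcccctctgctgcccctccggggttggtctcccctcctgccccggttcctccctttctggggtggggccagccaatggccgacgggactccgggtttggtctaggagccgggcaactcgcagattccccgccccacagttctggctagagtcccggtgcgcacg
Sdpr, chr1:51288876-51289155 (+ strand): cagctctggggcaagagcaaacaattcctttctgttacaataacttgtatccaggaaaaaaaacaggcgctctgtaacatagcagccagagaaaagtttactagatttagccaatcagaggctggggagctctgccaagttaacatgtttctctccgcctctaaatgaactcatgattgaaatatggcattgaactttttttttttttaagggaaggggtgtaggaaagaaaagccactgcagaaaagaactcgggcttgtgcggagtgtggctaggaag
The Cav3 window held 1 MCAT core, on the opposite strand (GGAATG) with its first base at position 19 of the transcript, and 2 E-boxes, with their first bases at positions -174 and -106. The Ptrf window held 1 MCAT core, with its first base at position -247, and no E-box. In the full element, as the authors give it, A or T follows the core. The Ptrf site has T there and matches it, whereas the Cav3 site has C on its strand and does not. The Sdpr window held neither motif. The windows of Cav1 (1 E-box in each of its 2 windows) and Cav2 (2 E-boxes) held no MCAT core. Of all 32851 promoter windows, 14.66% held the MCAT core and 72.31% an E-box, so these matches are common sequences and are given as a description.

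Levels are given as CPM, read counts scaled to library size, after TMM scaling over all 24 libraries, and differences as log2 fold changes from edgeR's quasi-likelihood test. A gene was called where its Benjamini-Hochberg adjusted p over all genes tested was under 0.05 and its log2 fold change exceeded 1 in size. All 6 genes passed the filter on low counts in both cell types (15303 genes tested in C2C12, 16144 in PMs, 16926 with both). The totals on genes ranged from 25453830 to 52784510 counts per library. The summed CPM of Tead1 and Tead4 in the siTead1/4 libraries was 7.86% to 59.8% of the siControl mean in C2C12 cells and 23.6% to 46.1% in PMs, and in both its mean was highest at day 6. All 6 muscle markers (Myod1, Myf5, Des, Myog, Ckm and Actn2) exceeded 1 CPM in both cell types. In C2C12 cells none of 6 endothelial markers (Emcn listed at 0 in all libraries) and none of 6 adipocyte markers (Plin1 and Cfd at 0) exceeded 1 CPM. In PMs 5 of 6 endothelial markers did, with a summed level of 2.87 to 16.7 CPM, and 1 of 6 adipocyte markers did (Cfd at 0), whereas fibroblast markers (Col1a1, Col1a2, Col3a1, Pdgfra, Dcn and Lum) summed to 764 CPM or more in every library of both cell types, with 5 of 6 over 1 CPM in C2C12 cells and 6 of 6 in PMs. Smooth muscle markers exceeded 1 CPM for 4 of 5 in C2C12 cells and 5 of 5 in PMs, and macrophage markers for 1 of 4 in each. The siTead1/4 replicates of C2C12 cells at day 3 differed most from each other, with a chi-square per gene of 267.9 against 15.88 to 133.4 in the other groups, and the siTead1/4 changes of single genes at that day are given with and without each. In bulk RNA, fewer cells of a type and less RNA per cell cannot be told apart.

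**Figure D1:**
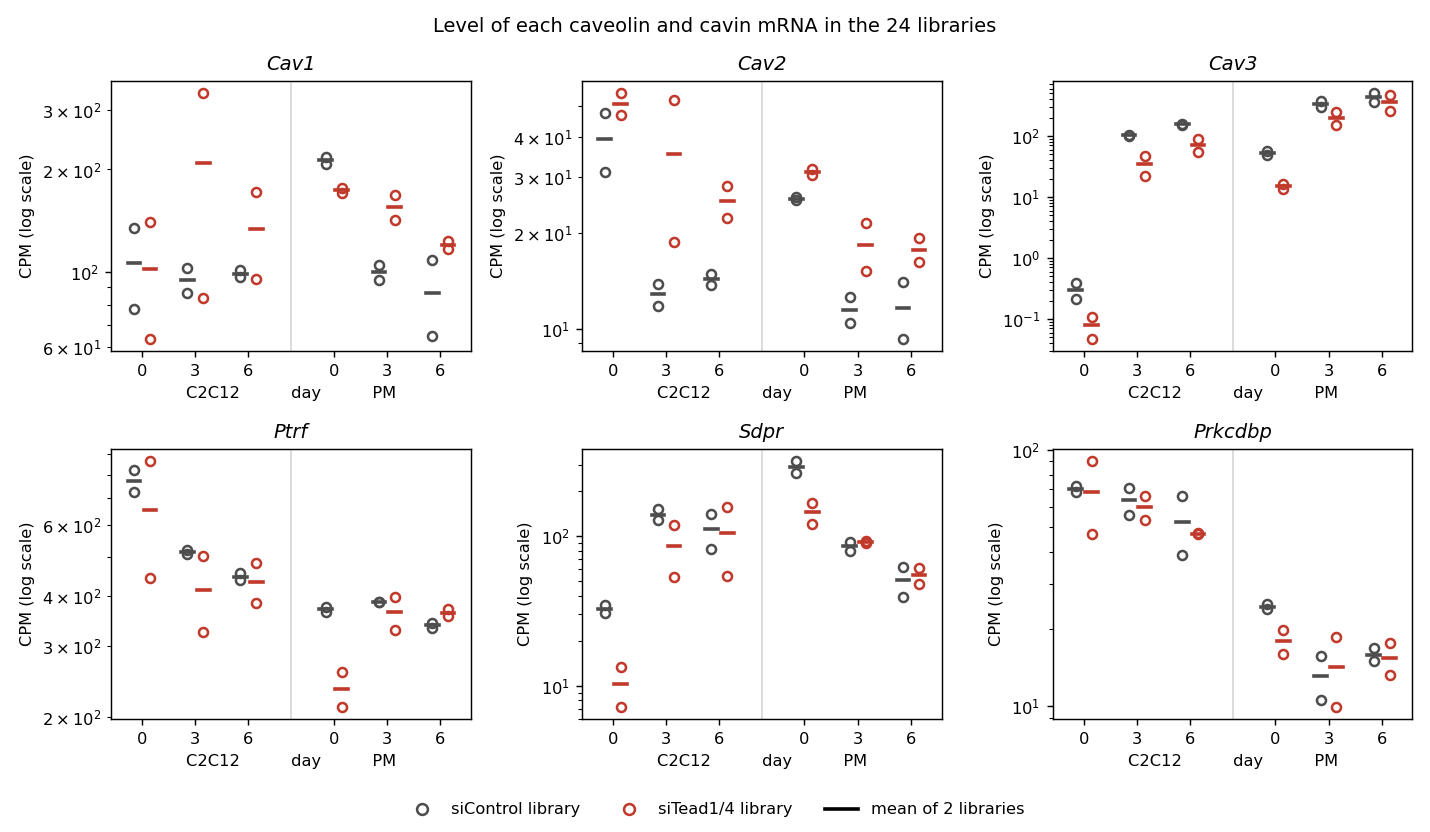
CPM of each of the 6 mRNAs in every library, on a log axis, by cell type and day, with siControl in grey and siTead1/4 in red and a bar at the mean of 2 libraries. Cav3 in C2C12 cells goes from below 0.4 CPM at day 0 to over 100 CPM in siControl at day 3, and Sdpr goes up in C2C12 and down in PMs.

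The first question was how these genes behave when siControl cells differentiate. Cav3 rose by far the most in both cell types, Cav2 fell in both, and Sdpr rose in C2C12 cells but fell in PMs. Cav1 fell in PMs, while Ptrf and Prkcdbp passed the call in neither cell type. In C2C12 cells 3 of the 6 genes were called at day 3 against day 0, beside 28.7% of all genes tested, and 3 at day 6, beside 31.1%. In PMs 4 were called at day 3 (all genes 32.3%) and 4 at day 6 (35.5%). Both days were compared with the same day 0 libraries.

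Cav3, the muscle caveolin, was close to absent from C2C12 myoblasts, with 14 and 12 counts (0.394 and 0.213 CPM) in the siControl libraries at day 0. It reached 104 and 101 CPM at day 3 and 160 and 150 CPM at day 6. The rise was 8.41 ± 0.52 (SE) on the log2 scale at day 3 (adjusted p = 4.263e-06) and 9.01 ± 0.53 at day 6 (adjusted p = 2.838e-06). PMs already had 49.0 and 56.9 CPM of Cav3 at day 0, and went to 297 and 379 CPM at day 3 and 364 and 500.5 CPM at day 6. Their rise was 2.62 ± 0.32 at day 3 (adjusted p = 5.484e-05) and 2.96 ± 0.33 at day 6 (adjusted p = 2.2e-05). In both cell types every library of the later days stood above every day 0 library.

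Cav1, the scaffold of caveolae in non-muscle cells, had 77.7 and 135 CPM in C2C12 siControl cells at day 0, 86.7 and 103 CPM at day 3 and 101 and 96.5 CPM at day 6, ranges that overlap. Its log2 fold changes there were -0.21 and -0.14, with 95% intervals of -1.50 to 1.09 and -1.43 to 1.15. In PMs it started at 218 and 208 CPM and was at 105 and 94.8 CPM at day 3 and 109 and 64.7 CPM at day 6. The fall in PMs was called at both days (-1.15 ± 0.19 and -1.36 ± 0.19, adjusted p = 0.0004844 and 0.0001391). In 1 fit of all 24 libraries the day 3 value was -1.09 with an adjusted p of 0.06961 by edgeR.

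Cav2, the partner of Cav1, had 31.1 and 47.5 CPM in C2C12 siControl cells at day 0, 11.8 and 13.9 CPM at day 3 and 14.9 and 13.8 CPM at day 6. PMs had 25.8 and 25.3 CPM at day 0, 12.6 and 10.4 CPM at day 3 and 14.0 and 9.29 CPM at day 6. The later libraries stood below those of day 0 in both cell types. The fall was -1.65 ± 0.41 and -1.49 ± 0.41 in C2C12 cells (adjusted p = 0.009602 and 0.01414) and -1.21 ± 0.21 and -1.20 ± 0.21 in PMs (adjusted p = 0.0006231 and 0.000624). With 1 library left out, the C2C12 call held in 2 of 4 cases at day 3 and in 1 of 4 at day 6 (highest adjusted p = 0.06945 and 0.09752, both without day 0 replicate 2), with the direction kept in each. The PM call at day 6 was lost by size without day 6 replicate 2 (-0.94, adjusted p = 0.005699).

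Sdpr, a cavin that lengthens caveolae into tubules when overexpressed, had 30.5 and 34.6 CPM in C2C12 siControl cells at day 0, 151 and 127 CPM at day 3 and 140 and 81.9 CPM at day 6. In PMs it stood at 316 and 263 CPM at day 0, 79.5 and 92.0 CPM at day 3 and 62.4 and 39.3 CPM at day 6. The ranges at day 0 and at the later days did not overlap in either cell type, and the order was opposite. The rise in C2C12 cells was 2.06 ± 0.54 at day 3 and 1.73 ± 0.53 at day 6 (adjusted p = 0.01227 and 0.02386), and this call held in 1 of 4 cases at each day when 1 library was left out (adjusted p up to 0.07805 without day 0 replicate 1 and 0.1375 without day 6 replicate 1). The fall in PMs was -1.81 ± 0.22 and -2.58 ± 0.23 (adjusted p = 5.483e-05 and 4.954e-06), and it was called whichever library was left out.

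Ptrf, without which caveolae do not form, was at 723 and 822 CPM in C2C12 siControl cells at day 0, 507 and 519 CPM at day 3 and 438 and 456 CPM at day 6. It was at 365 and 375 CPM, 386 and 386 CPM, and 343 and 333 CPM at the same days in PMs. The C2C12 values at days 3 and 6 lay below those of day 0, but the differences were not called (-0.63 and -0.83, adjusted p = 0.1431 and 0.05938). In PMs they were 0.01 and -0.20, with 95% intervals of -0.26 to 0.27 and -0.46 to 0.07. Prkcdbp, a protein kinase C delta binding protein, ranged from 38.9 to 72.1 CPM over the 6 C2C12 siControl libraries, where the days overlapped. In PMs it went from 23.9 and 24.9 CPM at day 0 to 10.6 and 15.7 CPM at day 3 and 16.8 and 14.9 CPM at day 6. The day 3 difference had an adjusted p of 0.01339 by edgeR but a log2 fold change of -0.95, short of the threshold, and that of day 6 was -0.69 (adjusted p = 0.05182).

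Between day 3 and day 6 edgeR called 0 of the 6 genes in C2C12 cells (all genes 0%, 406 of 15303 at an unadjusted p under 0.05, 19 by DESeq2) and 0 in PMs (all genes 2.8%). At an unadjusted p under 0.05 there were 0 of the 6 in C2C12 cells and 1, Sdpr, in PMs, where its log2 fold change was -0.77 (adjusted p = 0.06946), and DESeq2 called 0 in both.

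**Figure D2:**
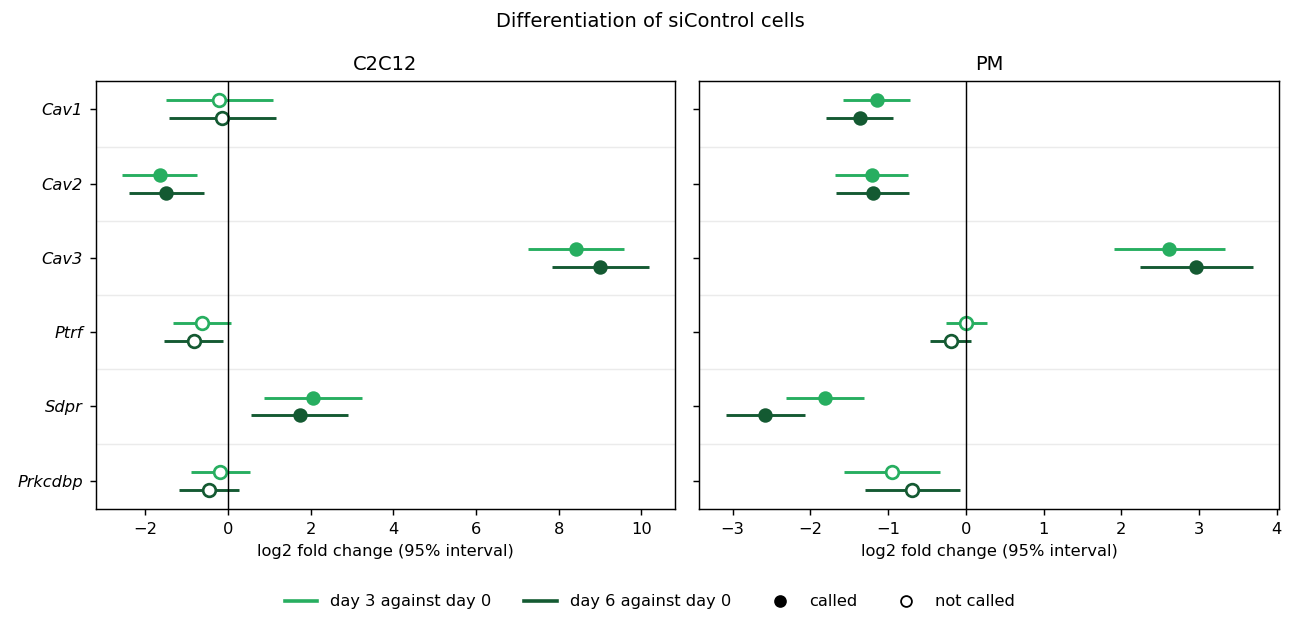
Log2 fold change of each gene at days 3 and 6 against day 0 in siControl cells, with 95% intervals, for C2C12 (left) and PMs (right). The horizontal axes differ in range, filled points are called, and Sdpr lies to the right of 0 in C2C12 and to the left in PMs.

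The difference of the differentiation response between the cell types was then tested itself, with all 24 libraries. It was called for Cav3 and Sdpr at both days, 2 of the 6 genes, beside 11.2% of all genes at day 3 and 12.7% at day 6. For Cav3 the log2 fold change in PMs minus that in C2C12 cells was -5.79 ± 0.62 at day 3 and -6.03 ± 0.62 at day 6 (adjusted p = 7.373e-06 and 3.899e-06). For Sdpr it was -3.85 ± 0.63 and -4.28 ± 0.64 (adjusted p = 0.0004664 and 0.0001582). All 4 calls held with each of the 8 libraries left out in turn. For Cav1, which was called in PMs alone, the difference was -0.92 at day 3 and -1.19 at day 6 and did not pass (adjusted p = 0.4264 and 0.2882), with a 95% interval at day 6 of -2.60 to 0.22. The summed level of the fibroblast markers in siControl PMs was 764 to 833 CPM at day 0 and 4673 to 6356 CPM at day 6, and in siControl C2C12 cells 1688 to 2482 CPM at day 0 and 3236 to 3479 CPM at day 6. Their part in the results was not tested.

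SiControl PMs and C2C12 cells were also compared directly, and more of the 6 genes were called as myoblasts than at the later days. Over all genes the share called was highest at day 3 and lowest at day 6. At day 0 Cav3 and Sdpr were higher in PMs, with log2 fold changes of 7.50 ± 0.53 and 3.15 ± 0.47, while Ptrf and Prkcdbp were lower, with -1.06 ± 0.25 and -1.52 ± 0.33 (adjusted p = 7.887e-09, 4.183e-05, 0.002346 and 0.001237). This was 4 of the 6 genes, beside 26.8% of all genes. The Ptrf call was lost without C2C12 siControl replicate 2, at a log2 fold change of -0.97. Cav1 had higher values in both PM libraries but was not called (adjusted p = 0.1071). Cav3 and Prkcdbp were called at day 3 (1.72 ± 0.36 and -2.27 ± 0.33), beside 29.8% of all genes, and at day 6 (1.48 ± 0.36 and -1.72 ± 0.33), beside 24.9%. Sdpr at day 6 was at -1.13 ± 0.44 with an adjusted p of 0.05213 by edgeR, and DESeq2 called it (-1.11, adjusted p = 0.03772). Prkcdbp and Cav3 were the 2 genes called at all 3 days. Ptrf also lay lower in both PM libraries than in both C2C12 libraries at each day, with log2 fold changes of -0.41 and -0.40 at days 3 and 6 (adjusted p = 0.1834 and 0.2096).

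Divided by gene length, the levels of different genes can be set side by side. In C2C12 siControl myoblasts Ptrf led with 148 ± 13.4 CPM per kilobase (SD, n = 2), followed by Prkcdbp with 67.8 ± 2.72, Cav1 with 30.9 ± 11.8, Cav2 with 11.8 ± 3.48, Sdpr with 10.7 ± 0.942 and Cav3 with 0.262 ± 0.11. Cav2 and Sdpr did not differ beyond their spread. At day 6 Cav3, with 134 ± 6.01 CPM per kilobase, stood above Ptrf with 85.6 ± 2.39. In PM siControl myoblasts Sdpr led with 94.9 ± 12.2 CPM per kilobase, then came Ptrf with 70.9 ± 1.37, Cav1 with 61.8 ± 2.07, Cav3 with 45.7 ± 4.78, Prkcdbp with 23.6 ± 0.702 and Cav2 with 7.66 ± 0.119. At day 6 the level of Cav3 was 373 ± 83.1 CPM per kilobase, with Ptrf next at 64.8 ± 1.38. Summed over the 6 genes, the siControl level was 269 CPM per kilobase at day 0 and 339 at day 6 in C2C12 cells, and 304 and 498 in PMs.

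**Figure D3:**
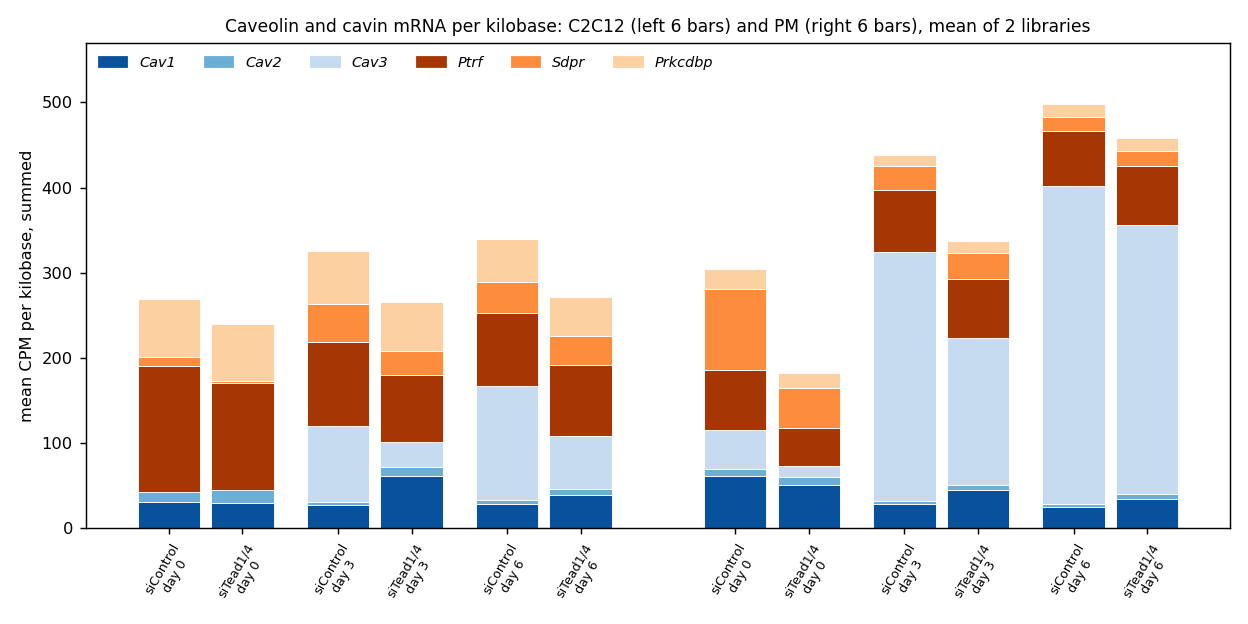
Mean CPM per kilobase of the 6 mRNAs stacked for each group of 2 libraries, with C2C12 in the left 6 bars and PMs in the right 6, the caveolins in blue and the cavins in orange shades. Cav3 (palest blue) is the widest band in both cell types at day 6 in siControl and is thin or missing at day 0 in C2C12.

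The second question was what silencing Tead1 and Tead4 did to these genes. In PM myoblasts at day 0 Cav3 and Sdpr fell, and none of the other 16 combinations of gene and day in PMs, nor any of 18 in C2C12 cells, passed the call by edgeR. Cav3 lay below siControl in every library at all 3 days in C2C12 cells and at days 0 and 3 in PMs. Cav2 lay above siControl at days 3 and 6 in C2C12 cells and at all 3 days in PMs. Separation of so few libraries is weak evidence by itself. Its share over all genes was not counted, so it is given here and below as a description. The number of genes called in PMs at day 0 was 2 of 6, beside 2.6% of all genes tested. The siControl libraries are those of the comparisons over time.

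At day 0 Cav3 in PMs had 13.4 and 16.5 CPM with siTead1/4 against 49.0 and 56.9 CPM with siControl. Sdpr had 167 and 121 CPM against 316 and 263 CPM. Neither pair of ranges overlapped. The log2 fold change was -1.83 ± 0.32 for Cav3 (adjusted p = 0.008771) and -1.02 ± 0.22 for Sdpr (adjusted p = 0.02047), the latter at the edge of the threshold. With 1 library left out, Cav3 kept its call in 1 of 4 cases (log2 fold change -1.99 to -1.69, highest adjusted p = 0.08612 without siTead1/4 replicate 1) and Sdpr in 0 of 4 (-1.27 to -0.81, highest adjusted p = 0.149 without siControl replicate 1). Sdpr was also not called in 1 fit of all 24 libraries (-1.01, adjusted p = 0.3071) or in a fit of the 4 libraries compared (-0.99, adjusted p = 0.01392).

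Ptrf in PMs at day 0 was at 212 and 258 CPM with siTead1/4 against 365 and 375 CPM with siControl, with a log2 fold change of -0.66 ± 0.12. Its adjusted p was 0.01007 by edgeR, and it missed the call by its size. Prkcdbp was at 16.0 and 19.8 CPM against 23.9 and 24.9 CPM (-0.46, adjusted p = 0.3558), and Cav1 at 171 and 177 CPM against 218 and 208 CPM (-0.30, adjusted p = 0.3799). Cav2 was the one gene of the 6 with higher values, 31.8 and 30.3 CPM against 25.8 and 25.3 CPM (0.27, adjusted p = 0.4776). In these libraries the summed fibroblast markers were at 1032 to 1281 CPM against 764 to 833 CPM and the summed muscle markers at 3975 to 4059 CPM against 4103 to 4139 CPM. The summed smooth muscle markers (Myh11, Cnn1, Smtn, Acta2 and Tagln) were at 802 to 860 CPM against 942 to 1114 CPM, and the part of these lists in the values was not tested.

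At day 3 in PMs edgeR called 0 of the 6 genes (all genes 3.3%), with 3 at an unadjusted p under 0.05, beside 3668 of all 16144 genes, and 0 by DESeq2. Those 3 were the caveolins. Cav1 had 169 and 142 CPM with siTead1/4 against 105 and 94.8 CPM (0.63 ± 0.19, adjusted p = 0.07687), and Cav2 had 21.5 and 15.2 CPM against 12.6 and 10.4 CPM (0.67 ± 0.21, adjusted p = 0.08539). Cav3 had 149 and 252 CPM against 297 and 379 CPM (-0.76 ± 0.31, adjusted p = 0.1679). The siTead1/4 and siControl ranges did not overlap for any of the caveolins, with Cav1 and Cav2 above the control and Cav3 below it. In the same libraries the summed muscle markers were at 10880 to 11400 CPM with siTead1/4 against 12290 to 13220 CPM, and the summed smooth muscle markers at 1939 to 2120 CPM against 1655 to 1787 CPM, and their part was not tested. Ptrf, Sdpr and Prkcdbp overlapped between the siRNAs, with log2 fold changes of -0.09, 0.08 and 0.10. At day 6 the count was again 0 of 6 by edgeR (all genes 0.743%), 2 at an unadjusted p under 0.05 (Cav1, 0.47, and Cav2, 0.60), beside 1914 of all genes, and 0 by DESeq2. Smooth muscle markers then summed to 2386 to 2661 CPM with siTead1/4 against 1860 to 2008 CPM. Cav3 then overlapped, with 258 and 473 CPM against 364 and 500.5 CPM (-0.24, 95% interval -0.91 to 0.43).

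In C2C12 cells at day 0 edgeR called 0 of the 6 genes (all genes 0.438%), 2 had an unadjusted p under 0.05 (Cav3 and Sdpr), beside 1603 of all 15303 genes, and DESeq2 called 1, Sdpr, beside 255 of all genes. Sdpr had 7.24 and 13.4 CPM with siTead1/4 against 30.5 and 34.6 CPM with siControl, ranges that did not overlap, and its log2 fold change was -1.66 ± 0.54 (adjusted p = 0.2739). Cav3 was counted 2 and 3 times with siTead1/4 and 14 and 12 times with siControl. The ratio was 0.253, with a 95% interval of 0.0757 to 0.668 that covers counting error only. By edgeR, which takes in the spread between replicates, its log2 fold change was -1.97 ± 0.80 (adjusted p = 0.4162).

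At day 3 in C2C12 cells edgeR called 0 of 6 (all genes 1.27%), 2 had an unadjusted p under 0.05, beside 2180 of all genes, and DESeq2 called those 2, Cav2 and Cav3, beside 604 of all genes. Cav3 had 21.7 and 47.2 CPM with siTead1/4 against 104 and 101 CPM with siControl (-1.61 ± 0.36, adjusted p = 0.06633). Cav2 had 52.2 and 18.7 CPM against 11.8 and 13.9 CPM (1.44 ± 0.41, adjusted p = 0.1285). Cav1 had 335 and 83.9 CPM against 86.7 and 103 CPM (1.13 ± 0.59, adjusted p = 0.4373). The first siTead1/4 replicate thus held the highest Cav1 and Cav2 and the lowest Cav3 of this day, and the second lay closer to siControl. Without the first replicate the log2 fold changes were -1.14 for Cav3, 0.53 for Cav2 and -0.19 for Cav1 (adjusted p = 0.1349, 0.4373 and 0.919), so that the sign of Cav1 rests on it. Without the second they were -2.25, 2.01 and 1.81 (adjusted p = 0.05464, 0.04014 and 0.1451). In the first and second replicate the pair Tead1 and Tead4 was left at 36.9% and 40.7% of the control.

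Among the cavins at this day, Sdpr had 118 and 53.3 CPM against 151 and 127 CPM (-0.72 ± 0.52, adjusted p = 0.612) and Ptrf 502 and 325 CPM against 507 and 519 CPM (-0.33, adjusted p = 0.7298). Both lay below the control ranges, whereas Prkcdbp overlapped (-0.11). Without the first siTead1/4 replicate the values were -1.40 for Sdpr and -0.67 for Ptrf, and without the second -0.25 and -0.04, none of them called. For Prkcdbp they were -0.26 and 0.04. Day 6 gave 0 calls by edgeR (all genes 0.0457%), 1 gene at an unadjusted p under 0.05, beside 1064 of all genes, and 0 calls by DESeq2. That gene was Cav3, with 54.4 and 90.6 CPM against 160 and 150 CPM (-1.09 ± 0.36, adjusted p = 0.4725). Cav2 had 28.1 and 22.3 CPM against 14.9 and 13.8 CPM (0.82 ± 0.40, adjusted p = 0.7766). The summed muscle markers of C2C12 cells were at 2245 to 3649 CPM with siTead1/4 and 5091 to 5322 CPM with siControl at day 3, and at 3032 to 5313 CPM and 5770 to 6488 CPM at day 6, and how far Cav3 followed them was not tested. The smooth muscle markers summed to 4606 to 4941 CPM with siTead1/4 and 2867 to 3289 CPM with siControl at day 6, and at day 3 their ranges overlapped.

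**Figure D4:**
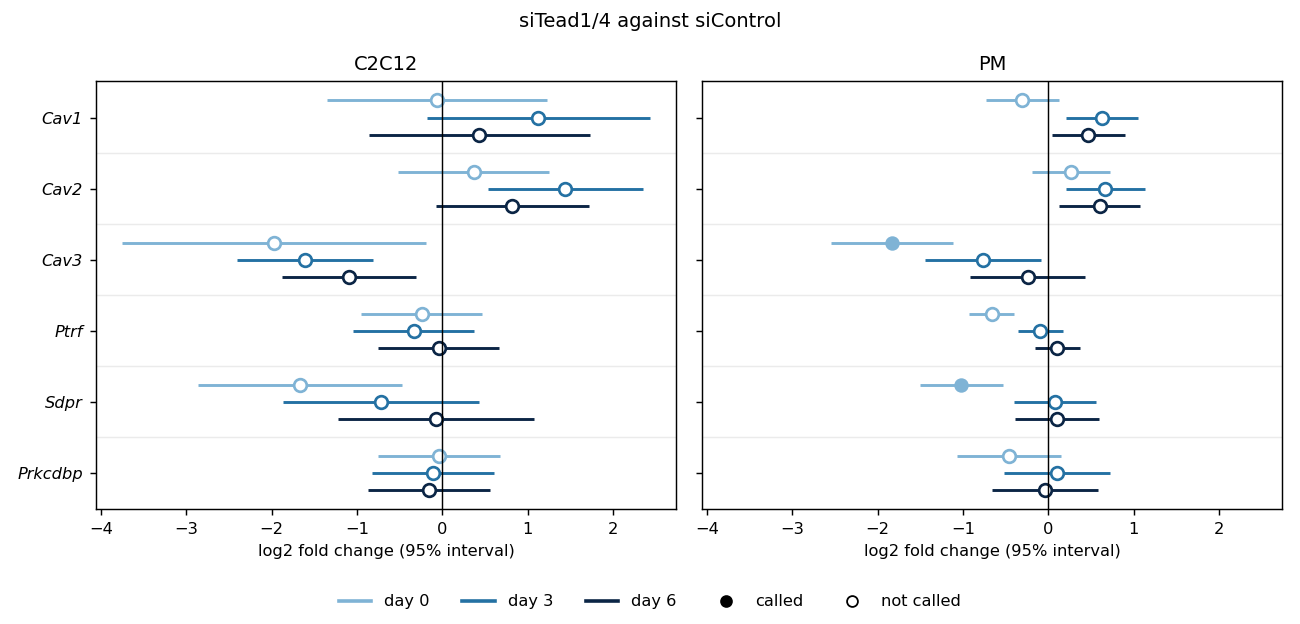
Log2 fold change of siTead1/4 against siControl for each gene at days 0, 3 and 6, with 95% intervals, for C2C12 (left) and PMs (right). Filled points are called: Cav3 and Sdpr in PMs at day 0 are the 2 of 36, and the Cav3 points lie left of 0 at every day in both panels.

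Whether these effects differed between days or cell types was tested as a difference of effects. Against the effect at day 0, edgeR called 0 of the 6 genes at day 3 and 0 at day 6 in C2C12 cells (all genes 0% and 0%, with 1745 and 1298 at an unadjusted p under 0.05, and 328 and 159 by DESeq2). None of the 6 had an unadjusted p under 0.05 there, and DESeq2 called none. In PMs edgeR also called 0 at day 3 and 0 at day 6 (all genes 0.328% and 0.626%), with 4 genes at an unadjusted p under 0.05 at each (Cav1, Cav3, Ptrf and Sdpr), beside 2170 and 2169 of all genes. DESeq2 called 1 at day 3, Sdpr, and 2 at day 6, Cav3 and Sdpr, beside 271 and 292 of all genes. With the replicate number as a block, edgeR called 2 at each day, Cav3 and Sdpr, beside 287 and 325 of all genes. The Cav3 effect in PMs was less negative by 1.07 ± 0.44 at day 3 and 1.59 ± 0.44 at day 6 than at day 0 (adjusted p = 0.3209 and 0.1342), and that of Sdpr by 1.10 ± 0.31 and 1.12 ± 0.31 (adjusted p = 0.1475 and 0.1363). In PMs 27.3% to 37.1% of the control Tead1 and Tead4 was left at day 0 and 23.6% to 27.2% at day 3. At day 6 it was 32.9% to 46.1%, and the part of these amounts was not tested.

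Between PMs and C2C12 cells the siTead1/4 effect was called different by edgeR for 0 of the 6 genes at day 0, 0 at day 3 and 0 at day 6 (all genes 0.00591%, 1.25% and 0.0354%). None had an unadjusted p under 0.05, and DESeq2 called none. The design left wide margins. For Cav3 the difference, PM minus C2C12, was 0.13 with a 95% interval of -1.66 to 1.93 at day 0, where C2C12 cells had the few counts given above, 0.82 (-0.24 to 1.88) at day 3 (0.37 and 1.49 without the first and the second C2C12 siTead1/4 replicate) and 0.86 (-0.20 to 1.92) at day 6. For Sdpr at day 0 it was 0.66 (-0.65 to 1.96). The call of Sdpr in PMs at day 0 and its absence in C2C12 cells are therefore not shown to differ.

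The balance among the caveolins was tested as 1 value per library, the share of Cav3 in the summed CPM per kilobase of Cav1, Cav2 and Cav3. In C2C12 cells with siControl the share was 1.05% and 0.343% at day 0, 75.8% and 71.9% at day 3, and finally 80.3% and 80.1%. With siTead1/4 it was 0.125% and 0.165%, then 14.2% and 57.6%, then 44.6% and 69.5%. Every siTead1/4 library lay below every siControl library of its day. In PMs the siControl share was 37.3% and 41.9%, 88.2% and 91.4%, and 89.8% and 95.2% at the 3 days, and with siTead1/4 it was 16.4% and 19.0%, 69.8% and 82.5%, and 84.3% and 91.3%. The ranges did not overlap at days 0 and 3 and overlapped at day 6.

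The mean difference over the 3 days was -20.6 percentage points in C2C12 cells (exact permutation test of the siRNA labels within days, two-sided p = 0.0093, the smallest that 216 labellings allow) and -13.4 percentage points in PMs (p = 0.0185, same test). The test takes the libraries of different days as independent, although replicate numbers are shared between the days. By day the difference was -0.554, -38.0 and -23.1 in C2C12 cells and -21.9, -13.6 and -4.70 in PMs. With 1 library left out the C2C12 difference was -27.8 to -13.3, lowest in size without the first siTead1/4 replicate of day 3, and p was 0.1759 without either siControl replicate of day 3 and 0.0648 without either of day 6, and stayed at 0.0093 without either siTead1/4 replicate of those days. The PM difference was -15.5 to -11.3 with p up to 0.037. The gap was smallest at day 0 and largest at day 3 in C2C12 cells, and largest at day 0 and smallest at day 6 in PMs. This order was not tested.

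**Figure D5:**
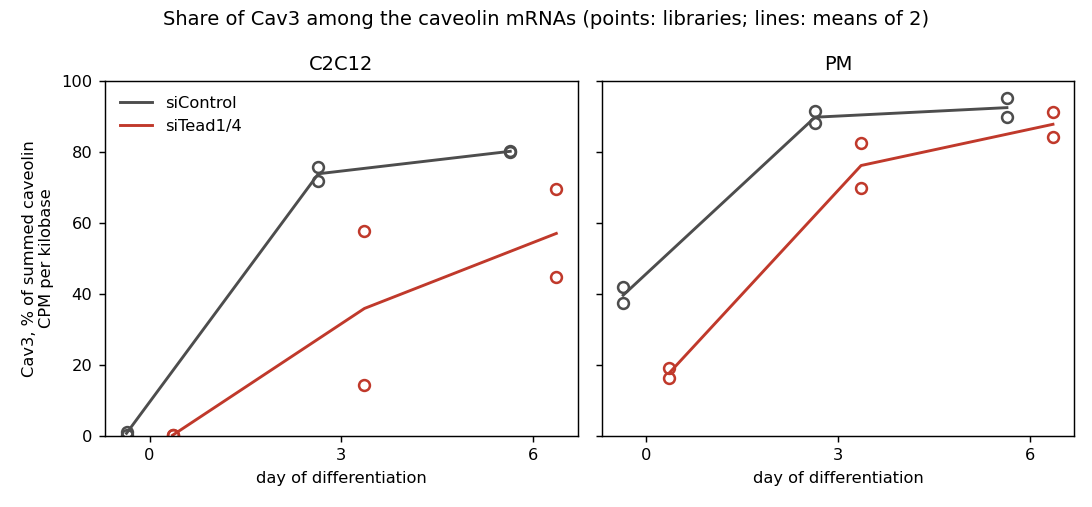
Share of Cav3 in the summed caveolin CPM per kilobase, in percent, for each library (points) with the mean of 2 (lines), by day, for C2C12 (left) and PMs (right). The siTead1/4 line (red) runs below the siControl line (grey) at every day, and the 2 siTead1/4 libraries of C2C12 at day 3 are far apart, at 14.2% and 57.6%.

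A list of 24 other genes of caveolae was tested beside the family, with Murc (cavin-4), the pacsin and EHD proteins that shape the pits, flotillins, cytoskeletal anchors, signalling proteins found there, and partners in membrane repair and T-tubules. All 24 passed the filter on low counts. During differentiation of siControl cells, 12 rose and 2 fell at day 3 in C2C12 cells, beside 28.7% of all genes called in either direction. In PMs 12 rose and 4 fell, beside 32.3%. The median log2 fold change was 1.12 in C2C12 cells (-0.01 over all genes) and 1.39 in PMs (0.01 over all genes). The list was chosen with earlier results of these data known, so its counts and medians are given as a description. After silencing, 0 of 24 were called in C2C12 cells at days 0 and 6 and 1 fell at day 3 (all genes 0.438%, 0.0457% and 1.27%). In PMs 2 rose and 1 fell at day 0, 1 rose and 2 fell at day 3 and 1 fell at day 6 (all genes 2.6%, 3.3% and 0.743%). The medians of these 6 comparisons lay between -0.31 and -0.03.

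By name, Cd36, a fatty acid transporter, fell in C2C12 cells at day 3, with 22.9 and 36.1 CPM against 77.8 and 106 CPM (-1.67 ± 0.27, adjusted p = 0.0233). It was called without the first siTead1/4 replicate (-1.37, adjusted p = 0.04407) but in none of the cases without another of the 4 libraries (highest adjusted p = 0.1986, without siControl replicate 2). In PMs at day 0 Pacsin1 rose (4.65 and 2.90 CPM against 1.14 and 1.04 CPM; 1.76 ± 0.27), as did Ehd3 (1.48 ± 0.27), and Pacsin3, the muscle pacsin, fell (33.4 and 29.5 CPM against 77.4 and 74.9 CPM, -1.29 ± 0.15), with adjusted p = 0.005111, 0.01078 and 0.001626. Pacsin1 also rose at day 3 (138 and 136 CPM against 28.1 and 40.9 CPM, 1.98 ± 0.20, adjusted p = 0.0007579). Nos1, the neuronal nitric oxide synthase of the muscle membrane, fell at day 3 (2.23 and 3.44 CPM against 12.2 and 18.1 CPM, -2.43 ± 0.43) and at day 6 (2.86 and 6.98 CPM against 46.0 and 82.9 CPM, -3.72 ± 0.44), with adjusted p = 0.008565 and 0.004282. The receptor Ror1 fell at day 3 (-1.08 ± 0.25, adjusted p = 0.02693). With each of 4 libraries left out in turn, Pacsin3, Pacsin1 at day 3 and Nos1 at day 6 kept the call in 4 of 4 cases. Pacsin1 at day 0 and Nos1 at day 3 kept it in 3 of 4, and Ehd3 and Ror1 in 1 of 4 (highest adjusted p = 0.1113 without siControl replicate 1 and 0.1855 without siControl replicate 1). Of these, the silencing effect differed between the cell types for Pacsin1 at day 3 (2.29 ± 0.51, adjusted p = 0.03574) and Nos1 at day 6 (-5.24 ± 0.87, adjusted p = 0.04292), where C2C12 cells had 97.1 and 25.3 CPM with siTead1/4 against 25.7 and 16.8 CPM. With each of 8 libraries left out in turn these calls held in 2 and 1 cases, and without the first C2C12 siTead1/4 replicate of the day the Pacsin1 difference was 2.04 (adjusted p = 0.05784) and that of Nos1 -3.96 (adjusted p = 0.2462).

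Murc, the remaining cavin and one made in muscle, is named for its family and was chosen after its values were seen. It had 194 and 213 CPM in siControl PMs at day 0 and 115 and 139 CPM with siTead1/4 (-0.69 ± 0.11, adjusted p = 0.00689, under the size threshold). In C2C12 cells at day 3 it had 203 and 242 CPM against 459 and 536 CPM (-1.19 ± 0.26, adjusted p = 0.06379), and -1.06 and -1.30 without the first and the second siTead1/4 replicate. With 1 library left out the day 0 adjusted p in PMs was at most 0.07041. During differentiation it rose by 3.17 ± 0.28 in C2C12 cells and 2.22 ± 0.12 in PMs at day 3 (adjusted p = 2.454e-05 and 2.802e-07).

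Across the 12 group means, the log2 CPM of the 6 genes followed different courses. The pairs with the largest Pearson's r in size were Cav2 and Cav3 (-0.872) and Ptrf and Prkcdbp (0.747), and the neighbours Cav1 and Cav2 had r = 0.352. The 12 means come from 2 cell types and 3 days, so that r mostly describes these and is given without a test. The genes most like Cav3 were Cacna1s, the voltage sensor of the T-tubule (r = 0.996), 4930429F24Rik (0.994) and Adora1 (0.993). For Cav1 they were Lpar4, Glyctk and Zeb2 (0.902, 0.894 and 0.893), for Cav2 Zfp410, Zkscan17 and Rps14 (0.970, 0.953 and 0.952) and for Ptrf Triobp, Pitpna and Pgls (0.944, 0.929 and 0.919). Those of Sdpr were Cnot6l, Zfand1 and Cdh2 (0.964, 0.962 and 0.958), and those of Prkcdbp were Bcr, Gm15975 and Mmgt2 (0.992, 0.990 and 0.988).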

How the data were processed

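RNA-seq libraries from polyadenylated RNA of C2C12 cells and PMs were analysed as raw read counts per gene. According to the submitters' processing notes, the authors used CASAVA 1.8.2, TopHat2 2.0.10, Bowtie2 2.1.0, HTSeq 0.6.1 and DESeq2 1.8.1 with the mm9 build, and deposited 1 table with the raw count of each gene and library, the same counts divided by DESeq2 size factors, and those per kilobase of gene length. The Ensembl release is not given in the sources used here. Only the deposited raw counts and gene lengths were used. 36 columns of 12 libraries not listed among the samples were left out. The median total on genes was 40147146 in C2C12 and 39204772 in PM libraries.

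Differences were tested in edgeR 4.0.16, run under R 4.3.3 (filterByExpr, TMM, glmQLFit and glmQLFTest), separately for C2C12 and PMs over 6 group means, or all 24 libraries with 12 group means for comparisons between cell types. P-values were adjusted with the Benjamini-Hochberg method over all genes tested. The 95% intervals use the standard error and degrees of freedom of that test. Levels are CPM on the TMM scale over 24 libraries. For group means, log2 CPM used a prior count of 2. The code of the fits was tried on simulated data with the same spread for all genes and libraries. The replicates here differ unevenly, so that trial does not bear on the calls. Alternatives were DESeq2 1.42.0, RLE size factors, no filter on low counts, the adjusted p alone as the call, a replicate block, other sets of libraries in the fit, and each library left out in turn (for genes outside the family, added after seeing the data). Every gene of the family was tested in every comparison, but the text does not give every value. The values left out were not called by edgeR in the main fits. The plots of log2 fold changes show every gene of the family for differentiation and for silencing. Of 24 other caveola genes those called after silencing were named, at most 4 a comparison by size of change. For each member the 3 genes with the highest r over group means were named. The genes and lists were chosen with earlier results of these data known. The p-values rest on 2 libraries a group and on a spread shared over the groups of a fit.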

Additional observations from a re-analysis of the deposited data

Results flagged for a closer look

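The change of Cav3 and of Sdpr on differentiation of siControl cells differed between PMs and C2C12 cells, by the test of the difference itself. For Cav3 the log2 fold change in PMs minus that in C2C12 cells was -5.786 at day 3 and -6.0253 at day 6, both cell types rising, from 0.394 and 0.213 CPM in C2C12 cells and 49.0 and 56.9 CPM in PMs at day 0. For Sdpr it was -3.8533 at day 3 and -4.2793 at day 6, with a rise in C2C12 cells and a fall in PMs. The day 0 libraries are shared by both days. Cell type, strain and culture conditions cannot be told apart in these differences.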

How the results depend on the processing

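No value called in either fit changed sign under any alternative. Of 815 fold changes of single genes under other settings, 778 stayed on their side of the call, 30 gained it, 3 lost it and 4 changed sign while not called in either fit. Of 792 with 1 library left out, 693 stayed, 20 lost the call, 5 gained it and 74 changed sign while not called in either fit, the largest of all such values being 0.813 on the log2 scale. RLE size factors moved no fold change of the 6 genes by more than 0.04 and DESeq2 none by more than 0.053.

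Calls after silencing depended on the fit. In C2C12 cells, against 0 calls by edgeR at each day, DESeq2 called 1 gene at day 0 and 2 at day 3. The fit without a filter on low counts called 2, 3 and 1 at days 0, 3 and 6, and 1 fit of all 24 libraries called 2 at day 3 (690 of all genes). In PMs at day 0, against 2 calls (420 of all genes), the fit of all 24 libraries called 1 (204 of all genes). That of the compared libraries alone called 1 (509 of all genes). Without the filter on low counts all genes called in C2C12 cells also went from 67, 195 and 7 to 480, 1055 and 387, and with DESeq2 to 255, 604 and 142. The cause was not tested. For the difference between days, the fit without a filter called 1 gene at day 3 and 1 at day 6 in C2C12 cells, beside 745 and 318 of all genes. It called 2 and 2 in PMs, beside 373 and 413 of all genes. DESeq2 called 1 and 2 in PMs, beside 271 and 292 of all genes. The main edgeR fits called 0 of the 6 in each, beside 0 and 0 of all genes in C2C12 cells and 53 and 101 in PMs. The median over days in place of the mean gave a difference in the Cav3 share of -23.148 percentage points in C2C12 cells (p = 0.1111) and -13.613 in PMs (p = 0.0556), no longer under 0.05 by the same exact permutation test.

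Replicate numbers are shared between groups. Deviations of same-numbered libraries correlated at -0.203 to 0.525 over 15 pairs of groups in C2C12 cells and at 0.069 to 0.539 in PMs. They were above 0.1 in 6 of the 15 pairs in C2C12 cells and in 14 of the 15 in PMs. The main fits did not pair the libraries by number in either cell type, and the pairing is given as an alternative. With the number as a replicate block, 2 genes (Cav3 and Sdpr) were called for the difference between days 3 and 0 in PMs (adjusted p = 0.02941 and 0.03675 by edgeR). The same 2 were called for days 6 and 0 (adjusted p = 0.005172 and 0.03076), against 0 at both without the block. Over all genes 287 and 325 were called with the block, against 53 and 101. The block added Sdpr at day 6 between PMs and C2C12 cells. It left the Cav3 share at -20.557 (p = 0.0312) and -13.415 (p = 0.0312), both by an exact sign-flip permutation test. That p is the smallest this test allows here.

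With 1 library left out, the number of the 6 genes called ranged from 0 to 1 in C2C12 cells at day 3 and from 0 to 1 in PMs at day 0 after silencing, from 1 to 3 and 1 to 2 for C2C12 siControl cells at days 3 and 6 against day 0, from 4 to 5 and 3 to 4 for PMs, from 0 to 1 for PMs at day 6 against day 3 and for the change of the silencing effect from day 0 to day 6 in PMs, and from 3 to 4 at day 0 and 2 to 3 at day 6 between the cell types. The Cav3 share difference ranged from -27.788 to -13.326 in C2C12 cells and from -15.531 to -11.299 in PMs.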
